A study of Mus musculus with 3 samples.

Results

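The interferon regulatory factors are a family of transcription factors, and their transcripts were followed here in mouse CD4+ T cells specific for an injected peptide. The 8 genes described are Irf1, Irf2, Irf3, Irf4, Irf5, Irf7, Irf8 and Irf9, chosen by symbol from the 23283 genes or gene groups in each of the study's 2 tables, and every one of them was found.

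The cells came from C57BL/6 mice that had 2W1S peptide, LPS and incomplete Freund's adjuvant injected into the footpads. On day 7, CD4+ cells binding 2W:I-A(b), the peptide held by the mouse MHC class II molecule I-A(b), were sorted from the draining inguinal and popliteal lymph nodes. The groups were MyD88 T-KO (genotype Myd88 -/-, described by the series title as a deletion restricted to T cells), IL6ra T-KO (genotype Il-6 receptor a chain -/-, likewise restricted to T cells) and WT, with 1 library each. The sources used here do not give the Cre line behind the deletions or the sex and age of the mice. Each library pooled cells of 4 experiments and 15 to 30 mice, so the spread between mice cannot be seen and no difference below has a replicate check or a test.

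Every member of the family binds DNA through a related N-terminal domain that recognizes repeats of GAAA, as found in interferon-stimulated response elements. IRF3, IRF5 and IRF7 are held inactive in the cytoplasm until kinases downstream of nucleic acid sensors and Toll-like receptors phosphorylate them, IRF5 and IRF7 in part through MyD88. IRF9 belongs to ISGF3, the complex through which type I interferons act, and Irf1, Irf7 and Irf9 are themselves induced by interferons. In CD4+ T cells IRF4 is induced by antigen receptor stimulation and, with BATF and JUN proteins, supports Th17 and follicular helper programs, while IRF1 supports Th1 cells. IRF8 and IRF5 are best known from B cells, macrophages and dendritic cells.

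Myd88 stood at 19.5 FPKM (a level per transcript length and library size, from fragments per kilobase) in MyD88 T-KO and 49.8 FPKM in WT. Il6ra stood at 65.1 FPKM in the library that carries the label IL6ra T-KO and 57.1 FPKM in WT, so its transcript was not lower there, and this library is named below by its label, although a deletion of some exons could leave the rest of the transcript measured. Myd88 was lower in that library too, at 34.2 FPKM there and 51.0 FPKM in WT, a ratio of -0.56 (implied SE 0.28). The WT library has a value in each table, higher by a median factor of 1.02 in the second, so every ratio was formed within a table. The libraries held roughly 21.8 to 25.4 M fragments, by an estimate from the FPKM values themselves. All 12 T cell markers listed were measured in every library, with Cd4 at 462 FPKM in MyD88 T-KO, 445 FPKM in the IL6ra T-KO-labelled library, and 415 and 425 FPKM in the first and second WT column. The 19 B cell markers were measured in every library too, with H2-Aa at 156 FPKM in MyD88 T-KO and 78.1 FPKM in WT, so the sorted cells were not free of B cell transcripts. Fewer cells of a type and less RNA per cell cannot be told apart in such bulk libraries.

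The sequence just upstream of a member's start is shown for Irf1, Irf8 and Irf5, because Irf1 and Irf8 carry the letters of a STAT-binding element there and Irf5 is the member whose level lay farthest from WT. The sequences are the 250 bases before the start from RefSeq on GRCm38.p6 (mm10), taken at the RefSeq start nearest to the one in the files and written 5′ to 3′ on the gene's own strand, with matches to the gamma-activated site (GAS), the element bound by STAT dimers, in capitals.
Irf1 (chr11:53769764-53770013, + strand): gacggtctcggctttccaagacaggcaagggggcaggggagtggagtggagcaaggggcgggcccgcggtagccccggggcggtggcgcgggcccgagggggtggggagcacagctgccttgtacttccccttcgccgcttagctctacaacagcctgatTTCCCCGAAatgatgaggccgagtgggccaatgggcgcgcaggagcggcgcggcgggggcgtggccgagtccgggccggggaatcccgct
Irf8 (chr8:120736108-120736357, + strand): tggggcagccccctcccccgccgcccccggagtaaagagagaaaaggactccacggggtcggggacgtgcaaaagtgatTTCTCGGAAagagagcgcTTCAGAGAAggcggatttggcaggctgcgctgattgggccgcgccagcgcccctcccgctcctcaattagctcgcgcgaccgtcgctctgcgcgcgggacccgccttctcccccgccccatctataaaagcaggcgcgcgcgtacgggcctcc
Irf5 (chr6:29526375-29526624, + strand): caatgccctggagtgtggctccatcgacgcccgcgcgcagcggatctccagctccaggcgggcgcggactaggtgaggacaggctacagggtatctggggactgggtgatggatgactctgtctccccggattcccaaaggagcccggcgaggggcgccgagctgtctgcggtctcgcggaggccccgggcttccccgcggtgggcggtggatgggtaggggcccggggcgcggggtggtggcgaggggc
The letters searched were GAAA, any 2 bases and GAAA for the interferon-stimulated response element, TTCNNNGAA for GAS, TGANTCA for AP-1, and GGG, any 2 bases and TTTCC for the NF-kB (kappa-B) motif, each on both strands, and no match overlapped another. Irf1 held 1 GAS match, beginning at position -90 from the start, and Irf8 held 2, at -171 and -153. Irf2, not printed because its upstream bases overlap annotated exons, held 1 match each to the response element, GAS and the kappa-B motif. In the same window Irf3, Irf4, Irf5, Irf7 and Irf9 held no match to any of the 4 motifs. Of 32851 upstream sequences of the same length in the RefSeq table, 2.98% held the response element, 7.02% GAS, 6.75% AP-1 and 1.41% the kappa-B motif. These letters describe the sequence and show no binding.

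The family kept much the same ranks in all libraries. In MyD88 T-KO and in WT the order from highest to lowest FPKM was Irf1, Irf2, Irf9, Irf3, Irf7, Irf4, Irf8 and Irf5. In the IL6ra T-KO-labelled library, Irf7 came right after Irf2, above Irf9 and Irf3, and the rest of the order was as in WT. Neighbours whose counting intervals overlapped were Irf9 and Irf3 in MyD88 T-KO, Irf7 and Irf9 in the IL6ra T-KO-labelled library, and Irf9 with Irf3 and Irf3 with Irf7 in WT. These intervals (95%, exact Poisson) rest on fragment numbers estimated from FPKM, transcript length and depth, here 417 to 4427 per gene, and cover counting error only. The 8 levels together summed to 284 FPKM in MyD88 T-KO and 297 FPKM in WT, and to 318 FPKM in the IL6ra T-KO-labelled library and 304 FPKM in WT of that table. Irf1 alone made up 23.6% of that sum in MyD88 T-KO and 27.1% in WT, and 26.1% in the IL6ra T-KO-labelled library, against 27.1% in WT.

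**Figure D1:**
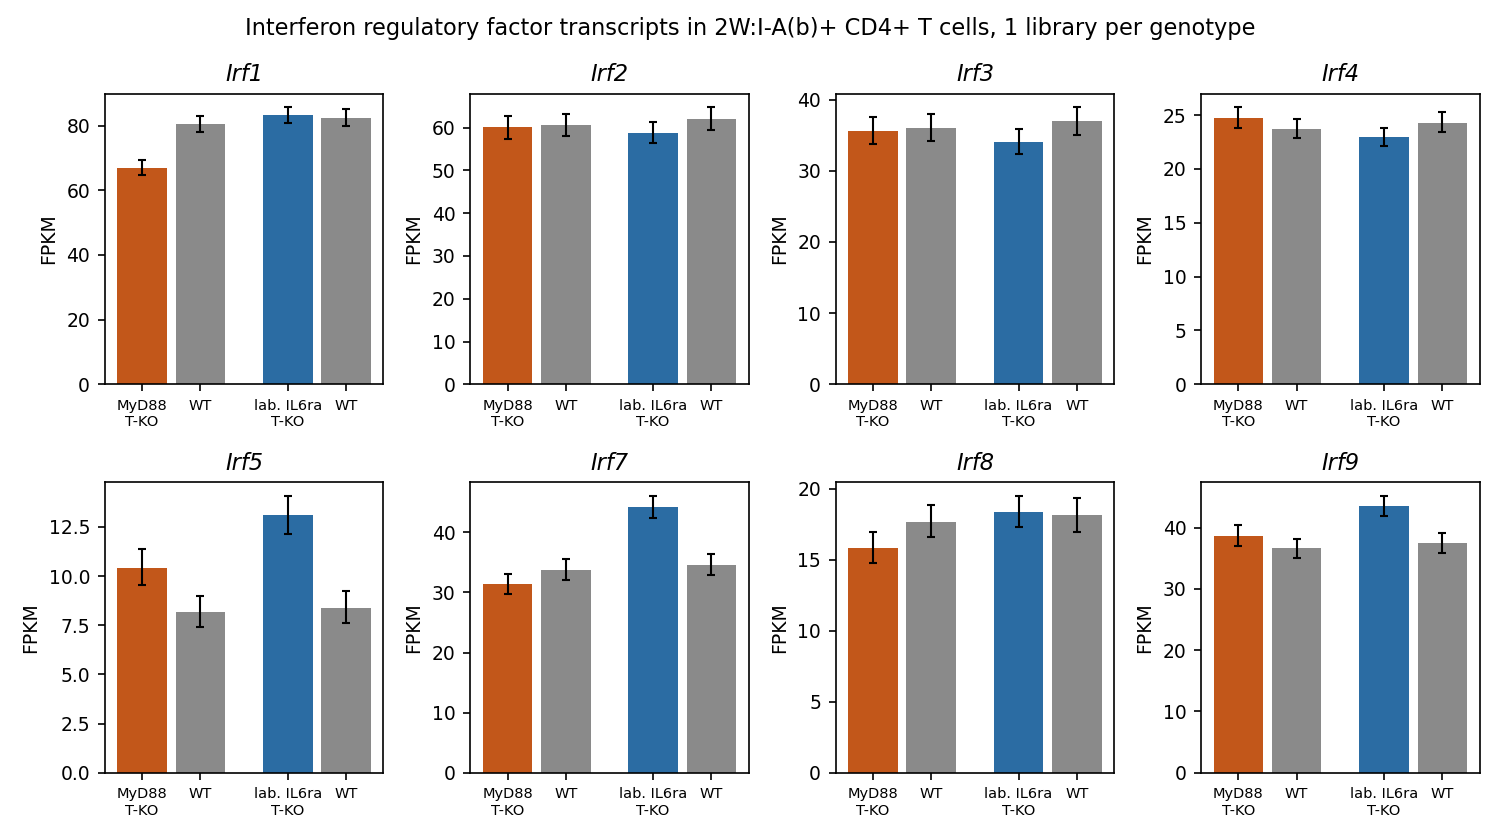
Level of each family member in FPKM (y axis, from 0, scaled per gene) in each knockout library and in the WT library of the same table, 1 library per bar, with 95% Poisson counting intervals as error bars. Irf5 is the member with the largest relative gap to WT, at 13.1 FPKM in the IL6ra T-KO-labelled library and 8.38 FPKM in WT, while Irf2, Irf3 and Irf4 sit close to WT in both tables.

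The first comparison asked how the family is expressed when T cells lack MyD88, the adaptor of most Toll-like receptors and of receptors of the IL-1 family. No member differed from WT by a factor of 2. Differences are given as log2((knockout FPKM + 1)/(WT FPKM + 1)), which understates those of low genes, and the counting rule asked for a ratio of at least 1 in size and at least 5 FPKM in either library. All 8 members passed that FPKM minimum, and 0 of 8 were counted, where 0.429% of 7933 genes were (0.189% higher, 0.24% lower). At a lower bound of 0.5 the count was again 0 of 8, where 2.41% of genes passed (1.18% higher, 1.22% lower). The member ratios ran from -0.26 to 0.32 with a median of -0.02, beside a median of 0.01 over all genes with at least 5 FPKM, and their median size was 0.09, beside 0.08 over all genes. In the authors' deposited table, none of the members (0 of 8) was marked significant between the libraries, each with a q-value of 1.00, where 0.878% of the genes tested there were marked.

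Irf1 (chromosome 11, 53770014 to 53778374, mm10), an interferon-induced activator that supports Th1 cells, stood at 67.0 FPKM in MyD88 T-KO and 80.5 FPKM in WT. Its log2 ratio was -0.26, with an error of 0.16 taken from the authors' own model (the standard error implied by their deposited fold change and test statistic). The counting interval of the ratio, computed like that error without the added 1 and running from -0.33 to -0.20, left out 0. Among all genes with at least 5 FPKM, 4.13% had a ratio that low. Irf2 (chromosome 8, 46739745 to 46847458), which binds the same sites as IRF1 and can oppose it, stood at 60.1 FPKM in MyD88 T-KO and 60.6 FPKM in WT, a ratio of -0.01 (implied SE 0.16). Irf1 was thus 1.12 times the level of Irf2 in MyD88 T-KO and 1.33 times in WT.

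Irf4 and Irf8, the close relatives that share partners of the ETS and AP-1 families, lay on either side of WT. Irf4 (chromosome 13, 30749258 to 30766927) stood at 24.7 FPKM in MyD88 T-KO and 23.7 FPKM in WT, a ratio of 0.06 (implied SE 0.16). Irf8 (chromosome 8, 120736376 to 120756692) stood at 15.8 FPKM in MyD88 T-KO and 17.7 FPKM in WT, a ratio of -0.15 (implied SE 0.18). Its counting interval, -0.30 to -0.02, left out 0 narrowly. Irf4 was 1.56 times as high as Irf8 in MyD88 T-KO and 1.34 times in WT.

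Of the members that respond to nucleic acid sensors and Toll-like receptors, Irf5 was the one that stood farthest from WT. Irf5 (chromosome 6, 29526625 to 29537320) was at 10.4 FPKM in MyD88 T-KO and 8.18 FPKM in WT, a ratio of 0.32 (implied SE 0.22, counting interval 0.16 to 0.54). A ratio at least that high was found for 2.77% of genes. Irf7 (chromosome 7, 141263183 to 141266424), which amplifies type I interferon production, was at 31.4 FPKM in MyD88 T-KO and 33.8 FPKM in WT, a ratio of -0.10 (implied SE 0.18). Irf3 (chromosome 7, 44997648 to 45002848), the constitutive member that starts interferon production, was at 35.6 FPKM in MyD88 T-KO and 36.1 FPKM in WT, a ratio of -0.02 (implied SE 0.17). Both Irf7 and Irf3 thus lay within 1 implied SE of 0. Irf9 (chromosome 14, 55603985 to 55610030), the DNA-binding subunit of ISGF3, was at 38.6 FPKM in MyD88 T-KO and 36.6 FPKM in WT, a ratio of 0.08 (implied SE 0.17).

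In 3 of 8 members, Irf1, Irf5 and Irf8, the counting interval left out 0, where it did so in 34.6% of 7228 genes, a share close to that of the family. All 8 ratios lay within 2 implied SE of 0. Strand use in the counting is not given in the sources used here. Exons of Irf1 share 100 bases with the antisense gene Gm17334, which was not found by symbol in the tables. Exons of Irf5 share 251 bases with Tnpo3 on the other strand, and those of Irf9 share 123 bases with Rnf31 on the same strand, so some fragments there may belong to either gene. Tnpo3 had a ratio of 0.06 and Rnf31 one of -0.13 in this comparison.

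**Figure D2:**
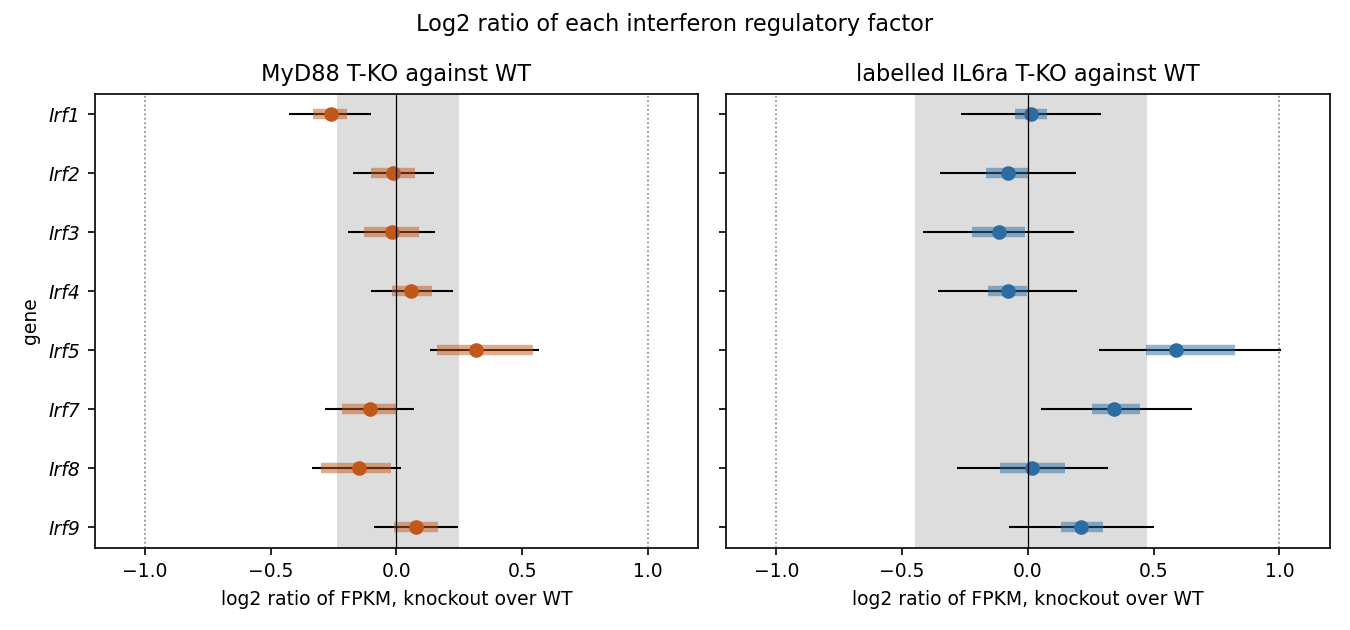
Log2 ratio of each family member (x axis, knockout over WT) in MyD88 T-KO (left) and in the IL6ra T-KO-labelled library (right), as points on FPKM + 1, with counting intervals as thick bars and the authors' implied SE as thin lines, both for the ratio without the added 1. The grey band holds the 5th to 95th percentile of genes with at least 5 FPKM, and dotted lines mark a ratio of 1 in size. In MyD88 T-KO the points of Irf1 (-0.26) and Irf5 (0.32) lie outside the band, and in the IL6ra T-KO-labelled library that of Irf5 (0.59) does.

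The second comparison asked the same of T cells without the alpha chain of the IL-6 receptor, the receptor chain that binds IL-6 and signals with gp130 through STAT3. Again no member differed from WT by a factor of 2. The highest ratios were those of Irf5, Irf7 and Irf9, that of Irf9 within 1 implied SE of 0. By the rule of 1 in size, 0 of 8 members were counted, where 1.69% of 8100 genes were (0.951% higher, 0.741% lower). At 0.5, Irf5 alone was higher and no member was lower, 1 of 8, where 8.37% of genes passed in either direction (4.49% higher, 3.88% lower), so the family's count is near the background. The member ratios ran from -0.11 to 0.59 with a median of 0.02, beside -0.06 over all genes, and their median size was 0.10, beside 0.14 over all genes. The authors' deposited table marked none of the members (0 of 8) as significant, each with a q-value of 1.00, where 0.969% of tested genes were marked. Both comparisons use the same WT library, so a WT value that is high or low by itself moves both ratios of a gene the same way.

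Irf5 stood at 13.1 FPKM in the IL6ra T-KO-labelled library and 8.38 FPKM in WT, a ratio of 0.59 (implied SE 0.36). Its counting interval was 0.47 to 0.82, and 3.42% of genes had a ratio at least as high. Irf7 stood at 44.2 FPKM in the IL6ra T-KO-labelled library and 34.6 FPKM in WT, a ratio of 0.34 (implied SE 0.30, counting interval 0.26 to 0.45). As high a ratio was found for 7.74% of genes. Irf3, which shares with IRF7 the role of switching on interferon genes, was at 34.1 FPKM in the IL6ra T-KO-labelled library and 37.0 FPKM in WT, a ratio of -0.11 (implied SE 0.30). Irf7 was therefore 1.30 times the level of Irf3 in the IL6ra T-KO-labelled library and 0.937 times in WT.

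Irf9 was at 43.5 FPKM in the IL6ra T-KO-labelled library and 37.5 FPKM in WT, a ratio of 0.21 (implied SE 0.29, counting interval 0.13 to 0.30), and 13.0% of genes had a ratio at least as high. Irf1 was level with WT, at 83.2 FPKM in the IL6ra T-KO-labelled library and 82.4 FPKM in WT, a ratio of 0.01 (implied SE 0.28). Irf2 was at 58.8 FPKM in the IL6ra T-KO-labelled library and 62.1 FPKM in WT, a ratio of -0.08 (implied SE 0.27). Irf4 was at 23.0 FPKM in the IL6ra T-KO-labelled library and 24.3 FPKM in WT, again -0.08 (implied SE 0.28). Each of these 3, like Irf9, lay within 1 implied SE of 0. Irf8 was at 18.4 FPKM in the IL6ra T-KO-labelled library and 18.1 FPKM in WT, a ratio of 0.02 (implied SE 0.30).

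The counting interval left out 0 for 5 of 8 members, Irf3, Irf4, Irf5, Irf7 and Irf9, where it did so for 58.6% of 7371 genes. All 8 ratios lay within 2 implied SE of 0, and those of Irf5 and Irf7 were the ones beyond 1 implied SE. The neighbours Tnpo3 and Rnf31 had ratios of 0.06 and -0.06.

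Of 12 interferon receptor and JAK-STAT genes in MyD88 T-KO, 4 lay above 0 and 8 below, with a median of -0.04 and none past 1 in size. In the IL6ra T-KO-labelled library 6 lay above and 6 below, with a median of -0.01 that turned to 0.05 when centred on all genes, and Socs1, which encodes an inhibitor of JAK kinases, was the 1 gene past that bound, of 11 with at least 5 FPKM, where 1.69% of all genes were. At 0.5, 3 of those 11 passed, 1 higher and 2 lower, where 8.37% of all genes did. Socs1 was at 36.7 FPKM in the IL6ra T-KO-labelled library and 112 FPKM in WT, a ratio of -1.58 (implied SE 0.29). The 1 higher gene was Usp18, with a ratio of 0.57 (implied SE 0.43) in that library. Jak2, a kinase used by the interferon gamma receptor, had a ratio of -0.54 there and Ifngr1, a chain of that receptor, 0.32. Over all genes with at least 1 FPKM, 54.2% lay above 0 and 45.8% below in MyD88 T-KO, and 43.1% above and 56.9% below in the IL6ra T-KO-labelled library. As with the family, the lists were chosen with results of these data known, and their counts describe them with no test.

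The list of activators of IRF3, IRF5 and IRF7 held 19 measured genes, with 11 above 0 and 8 below in each comparison. Over all genes, 54.2% lay above 0 in MyD88 T-KO and 43.1% in the IL6ra T-KO-labelled library. Its median was 0.02 in MyD88 T-KO, -0.01 with the WT values of the other table, and 0.06 in the IL6ra T-KO-labelled library. Of the 17 with at least 5 FPKM, 0 passed 1 in size in either comparison, where 0.429% and 1.69% of all genes did. Unc93b1, which carries nucleic acid-sensing Toll-like receptors to endosomes, was the farthest above WT among those with at least 5 FPKM, with ratios of 0.51 (implied SE 0.19) in MyD88 T-KO and 0.56 (implied SE 0.32) in the IL6ra T-KO-labelled library. Ifih1, a sensor of double-stranded RNA, stood at 0.43 in the IL6ra T-KO-labelled library. Of 9 genes for proteins that bind or modify IRF proteins, 0 passed 1 in size in either comparison, beside the same shares of all genes. Their median was 0.09 in MyD88 T-KO and -0.04 in the IL6ra T-KO-labelled library, where the mean was 0.05 and the centred median 0.01. Of the 9, 7 lay above 0 and 2 below in MyD88 T-KO, where 54.2% and 45.8% of all genes did. In the IL6ra T-KO-labelled library 4 lay above and 5 below, where 43.1% and 56.9% did. Swap70, whose product binds IRF4, was highest, with ratios of 0.41 (implied SE 0.19) and 0.77 (implied SE 0.32). Irf2bpl was lowest in the IL6ra T-KO-labelled library, at -0.40 (implied SE 0.27).

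Among the genes for DNA-binding partners of IRF4 and IRF8, Batf, Jun and Junb lay below WT in both comparisons. Batf, which encodes the factor that binds joint elements with IRF4, was at 83.0 FPKM in the IL6ra T-KO-labelled library and 171 FPKM in WT, a ratio of -1.03 (implied SE 0.28). Junb, its usual partner, was at 552 FPKM in the IL6ra T-KO-labelled library and 1087 FPKM in WT, a ratio of -0.98 (implied SE 0.37). In MyD88 T-KO the ratios of Jun and Junb were -0.73 (implied SE 0.17) and -0.63 (implied SE 0.22). Over the 11 measured partners the median was 0.01 in MyD88 T-KO, with 6 above 0, where 54.2% of all genes were, and 5 below. In the IL6ra T-KO-labelled library it was -0.37, with 4 above 0, where 43.1% of all genes were, and 7 below. Of the 10 with at least 5 FPKM, 3 were lower at 0.5 in each comparison, where 1.22% and 3.88% of all genes were. At 0.5, 1 was higher in MyD88 T-KO and 0 in the IL6ra T-KO-labelled library, where 1.18% and 4.49% were. By the rule of 1 in size 0 passed in MyD88 T-KO, where 0.429% did, and 1 was lower in the IL6ra T-KO-labelled library, where 0.741% were. The median in MyD88 T-KO turned to -0.01 when centred on all genes, to -0.03 with the WT values of the other table and to -0.03 over those with at least 5 FPKM, and the mean was -0.07. Others lay near 0, such as Tcf3, which encodes the E2A proteins, at 0.03 in the IL6ra T-KO-labelled library and Nfatc1, which encodes a calcium-regulated factor, at 0.04 in MyD88 T-KO. Spib, a partner of IRF4 and IRF8 in B cells, went the other way, with 9.48 FPKM in MyD88 T-KO and 5.28 FPKM in WT.

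Genes that depend on IRF4 in T cells were lower in part, while Irf4 stood within 0.08 of WT on the log2 scale in both comparisons. Of 12 such genes, 9 lay below 0 in MyD88 T-KO, where 45.8% of all genes did, with a median of -0.42. In the IL6ra T-KO-labelled library 6 lay below 0, where 56.9% of all genes did. The median there was -0.02, which turned to 0.04 when centred and to 0.02 with the WT values of the other table. The means were -0.57 and -0.48. Il17a and Il17f, the cytokine genes of Th17 cells, were lowest in both. Il17a was at 1.73 FPKM in MyD88 T-KO and 7.60 FPKM in WT, and at 1.23 FPKM in the IL6ra T-KO-labelled library and 7.79 FPKM in WT. Prdm1, which encodes Blimp-1, was on the other side in the IL6ra T-KO-labelled library, with a ratio of 0.56, as was Gata3, the Th2 factor, with 0.46. Beside these values, the 3 gamma delta T cell markers listed, 2 of them measured, summed to 4.13 FPKM in MyD88 T-KO and 6.89 FPKM in WT, and to 0.920 FPKM in the IL6ra T-KO-labelled library and 7.06 FPKM in WT. None was listed at 0, Cd163l1 had ratios of -0.53 and -2.15, and the part of such cells in the Il17a and Il17f values was not tested.

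Target genes of ISGF3 and IRF7 lay above WT in the IL6ra T-KO-labelled library, as did other groups given below. All 27 measured targets were above 0 there, with a median of 0.43, where 43.1% of all genes were. Oasl2, an interferon-induced antiviral gene, was at 8.32 FPKM in the IL6ra T-KO-labelled library and 3.84 FPKM in WT, a ratio of 0.95 (implied SE 0.38), and Ifit3, which encodes an antiviral protein induced through ISGF3, had a ratio of 0.86 (implied SE 0.36). Of the 22 targets with at least 5 FPKM, 0 passed 1 in size, where 0.951% of all genes were higher by that rule, and 8 were higher at 0.5, where 4.49% of all genes were. The authors' deposited table marked none of the targets (0), where 0.969% of genes tested there were marked. With 5 FPKM added in place of 1 the median was 0.24. Irf9 had a ratio of 0.21 beside them. B cell and plasma cell markers, given below, were higher in that library too, as were 5 of 6 measured macrophage and dendritic cell markers. The part of such cells in these values was not tested. In MyD88 T-KO the same list was divided, with 10 above 0 and 16 below, a median of -0.02 and Usp18, which encodes a brake on the type I interferon receptor, at 0.40.

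Genes that depend on IRF1 showed 12 of 13 measured members above 0 in the IL6ra T-KO-labelled library, where 43.1% of all genes were. The median of the list was 0.22, although Irf1 itself was level with WT. Of the 12 with at least 5 FPKM, 1 was higher at 0.5, where 4.49% of all genes were, and 1 lower, where 3.88% were. By the rule of 1 in size 0 were higher, where 0.951% of all genes were, and 1 was lower, where 0.741% were. Gbp2, an interferon-inducible GTPase gene, had a ratio of 0.54 (implied SE 0.29) and Psmb9, an immunoproteasome subunit gene, 0.49 (implied SE 0.28), while Socs1, also counted above, was the 1 below 0. In MyD88 T-KO 6 lay above and 7 below, where 54.2% of all genes lay above and 45.8% below. The list had a median of -0.11 there, from Cd274, the PD-L1 gene, at -0.40 to Ciita, the master regulator of MHC class II genes, at 0.84. Beside these values, B cell markers had medians of 0.84 in MyD88 T-KO and 0.47 in the IL6ra T-KO-labelled library, plasma cell markers 0.63 and 1.36, and macrophage and dendritic cell markers 0.25 and 0.49, and their part in the IRF1-dependent genes was not tested. Of 12 interferon genes, Ifng was the 1 measured at 1 FPKM or more. It was at 6.07 FPKM in MyD88 T-KO and 12.2 FPKM in WT, and at 27.7 FPKM in the IL6ra T-KO-labelled library and 12.5 FPKM in WT. Ifnb1 and the 6 interferon alpha genes looked up were listed at 0 in every library.

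**Figure D3:**
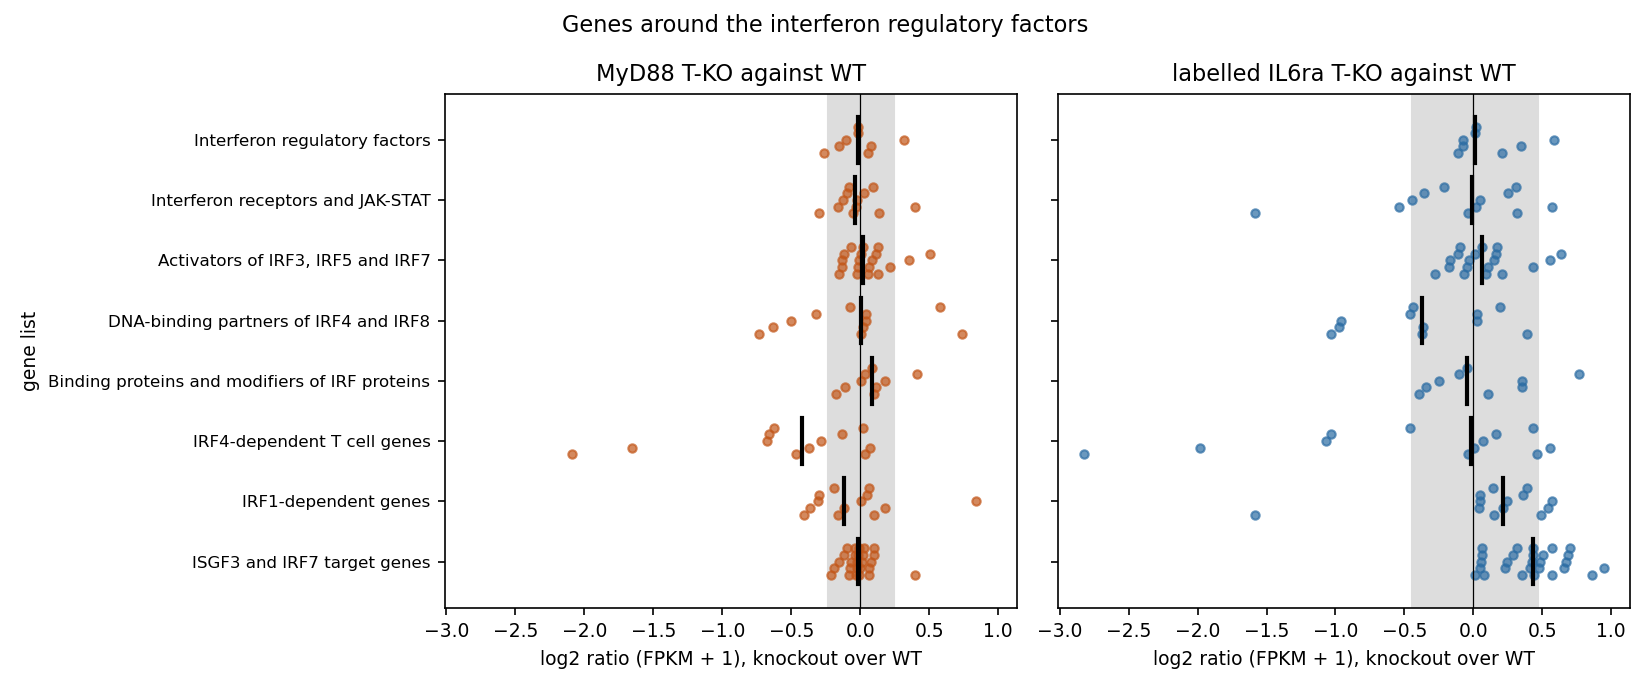
Log2 ratio on FPKM + 1 (x axis, knockout over WT) of the measured genes of 8 lists, 1 point per gene with the median as a vertical bar, in MyD88 T-KO (left) and in the IL6ra T-KO-labelled library (right), with the 5th to 95th percentile of genes with at least 5 FPKM in grey. The 27 target genes of ISGF3 and IRF7 all lie right of 0 in the right panel, with a median of 0.43, and the family itself has medians of -0.02 and 0.02.

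Markers of B cells, plasma cells and, in part, macrophages and dendritic cells were higher beside Irf5, while other marker lists were mixed. All 19 B cell markers lay above 0 in both comparisons, where 54.2% and 43.1% of all genes did. Their medians were 0.84 in MyD88 T-KO and 0.47 in the IL6ra T-KO-labelled library. Their summed level was 995 FPKM in MyD88 T-KO and 543 FPKM in WT, and 801 FPKM in the IL6ra T-KO-labelled library and 556 FPKM in WT, with none listed at 0. Irf5 had ratios of 0.32 in MyD88 T-KO and 0.59 in the IL6ra T-KO-labelled library. Irf8, also a gene of B cells, had ratios of -0.15 and 0.02. Of 16 macrophage and dendritic cell markers, 6 were measured at 1 FPKM or more, with medians of 0.25 and 0.49. The summed level of all 16 was 169 FPKM in MyD88 T-KO and 151 FPKM in WT, and 186 FPKM in the IL6ra T-KO-labelled library and 155 FPKM in WT. Most of each sum was Ctss, at 119 FPKM in MyD88 T-KO and 128 FPKM in the IL6ra T-KO-labelled library, with ratios of 0.04 and 0.11. The other 10 markers were below 1 FPKM in every library. Lyz2, the lysozyme gene of myeloid cells, had ratios of 0.96 in MyD88 T-KO and 0.72 in the IL6ra T-KO-labelled library, and Cybb, a subunit gene of the phagocyte oxidase, 0.46 and 0.94. Cd68, a macrophage marker, went the other way, with -0.08 and -0.46. Of the 2 markers of cross-presenting dendritic cells, Clec9a was listed at 0 in the IL6ra T-KO-labelled library and in WT, and Xcr1 was at 0.487 FPKM in the IL6ra T-KO-labelled library and 0.172 FPKM in WT. Of 4 plasma cell markers, 3 were measured, with medians of 0.63 and 1.36. All 4 summed to 29.0 FPKM in MyD88 T-KO and 16.2 FPKM in WT, and to 65.7 FPKM in the IL6ra T-KO-labelled library and 16.6 FPKM in WT. The part of B cells, plasma cells and macrophages in the values of Irf5, Irf4 and Irf8 was not tested.

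**Figure D4:**
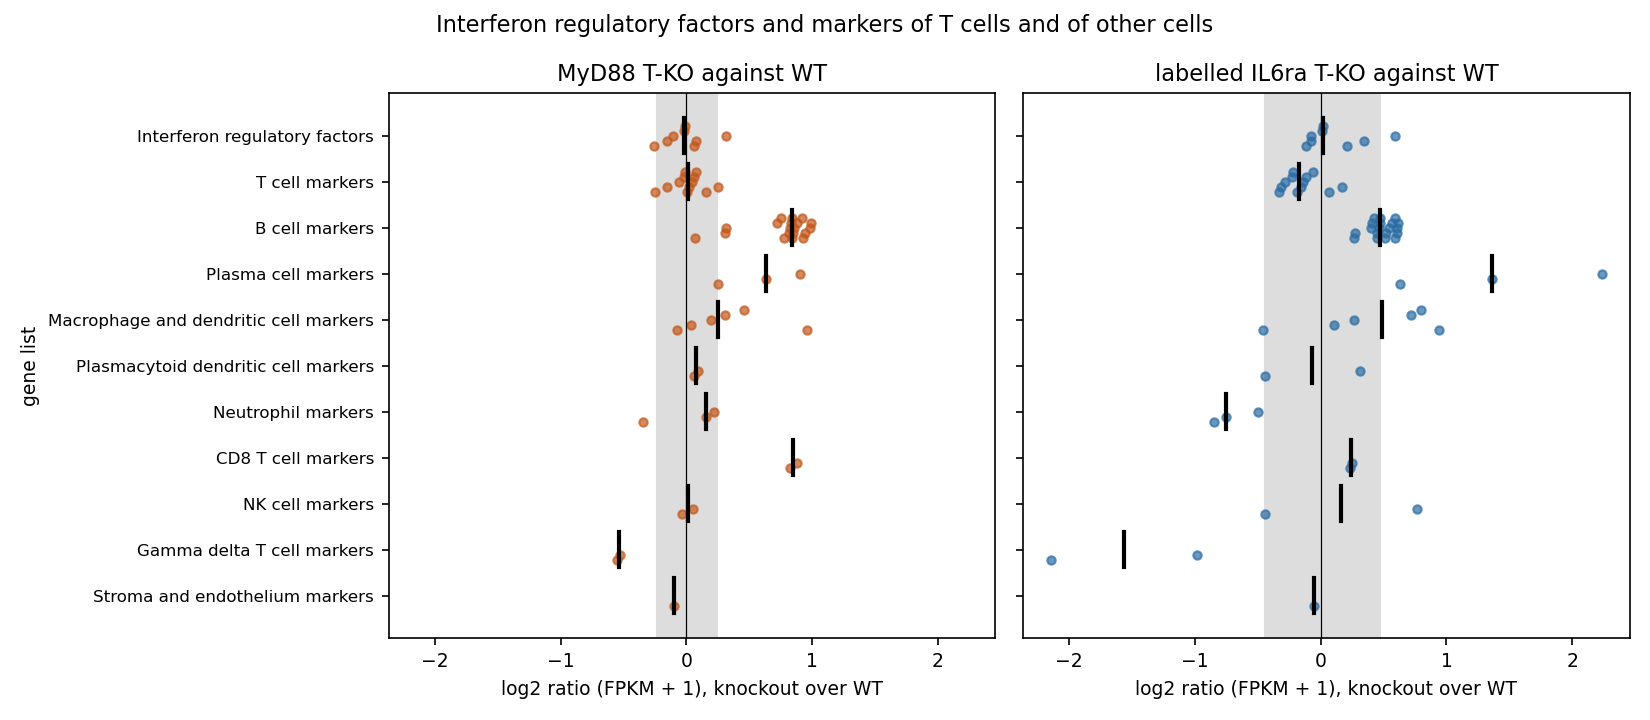
Log2 ratio on FPKM + 1 (x axis, knockout over WT) of the family and of the measured markers of T cells and of other cell types, 1 point per gene with the list median as a vertical bar, in MyD88 T-KO (left) and in the IL6ra T-KO-labelled library (right). All 19 B cell markers lie right of 0 in both panels, with medians of 0.84 and 0.47, and Irf5 is the family member farthest to the right in each.

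Other marker lists were short. The 2 CD8 T cell markers had medians of 0.85 in MyD88 T-KO and 0.24 in the IL6ra T-KO-labelled library. Of 5 markers of plasmacytoid dendritic cells, which hold much IRF7, 3 were below 1 FPKM in every library. The 2 measured had medians of 0.08 and -0.07, the second turning to 0.07 with no FPKM minimum. The 3 measured neutrophil markers had medians of 0.16, which turned to -0.03 with no FPKM minimum, and -0.75. The 2 measured NK cell markers had medians of 0.01 and 0.16, of which the first turned to -0.0037 when centred, to -0.02 with the WT values of the other table and to -0.04 at 5 FPKM or more. Of 5 stroma and endothelium markers, 4 were below 1 FPKM in every library. The other, Pecam1, had ratios of -0.09 and -0.05, the second turning to 0.01 when centred. Of the 12 T cell markers, 7 lay above 0 in MyD88 T-KO, where 54.2% of all genes did. Their median of 0.01 there turned to -0.02 with the WT values of the other table. In the IL6ra T-KO-labelled library 2 of the 12 lay above 0, where 43.1% of all genes did, with a median of -0.17.

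The genes most like a member were found as those with the smallest distance in the pair of log2 ratios, over 7866 genes with at least 5 FPKM in each table. The measure rests on 3 libraries, and both ratios share WT. For Irf5 they were Bub1b, Top2a and Spc25, at distances of 0.02, 0.03 and 0.04, and 5 genes in all lay within 0.05. For Irf7 they were Ctsl, Adamts10 and Faah, at 0.01 to 0.02, among 21 genes within 0.05. For Irf1 they were Rnf215, Stoml1 and Slc20a1, at 0.01 to 0.02, among 28 genes. Near Irf2, Irf3 and Irf4, which lay closest to WT, there were 509 to 554 genes each within that distance.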

How the data were processed

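RNA of 3 pooled libraries was measured by polyA-selected RNA-seq, per the labels' protocols, and samples were grouped by their titles. Per the submitters' processing notes the tools were TopHat and Cufflinks and the genome build mm10, with no version or setting in the sources used here. The authors deposited FPKM for each knockout library and WT in 2 tables of 4 sheets each, with their own log2 fold change, test statistic (a score), p-value and q-value, which compare 1 library with 1 library. Per the file headers the fold change has WT on top, and its sign was turned round. A line without values was left out of each table.

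From these, log2((knockout FPKM + 1)/(WT FPKM + 1)) was computed (Python 3.11.15, pandas 2.3.3, scipy 1.17.1), and no test was run. Depth was taken from the step that 1 fragment makes in FPKM times length, over 56 to 74 single-transcript genes of at least 1500 bases, with lengths from the GENCODE annotation, and is approximate. Fragments per gene used the median coding transcript length. Counting intervals of ratios are exact (Clopper-Pearson, 95%). The calculations were tested on simulated data.

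Family members and gene lists were chosen with earlier results of these data known. Genes named from a list are up to 2 in each direction with the largest ratio at 5 FPKM or more. Ifnb1, Ctss, Clec9a, Xcr1 and Cd163l1 were named after their values were seen, and Tnpo3, Rnf31 and Gm17334 for their overlap. As genes most like a member, the 3 nearest were named for the 3 members farthest from 0. List symbols were matched as given or through RefSeq synonyms, and 2 symbols were not matched.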

Additional observations from a re-analysis of the deposited data

How the results depend on the processing

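The alternatives were 0.1 or 5 FPKM added in place of 1, centring on the median of all genes, WT values of the other table, no FPKM minimum and one of 10 FPKM. Of 96 member ratios under these, 96 moved by less than the reach of their counting interval to either side and 0 changed sign. This count includes ratios that could not move, because an FPKM minimum does not enter the ratio of a single gene. Centring shifts every gene equally. Swapping WT values nearly does so, as WT levels in the second table were 1.02412 (5th percentile) to 1.02485 (95th percentile) times those in the first. The count is therefore a check mainly of the added FPKM. No member passed a ratio of 1 in size under any of the alternatives. With 5 FPKM added, 0 members passed 0.5 in the IL6ra T-KO-labelled library, and Irf5 was then at 0.44 there and at 0.23 in MyD88 T-KO. The mean of the members was 0.11 in the IL6ra T-KO-labelled library, where the median was 0.02.

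Over all genes, 15 were higher and 19 lower in MyD88 T-KO by the rule of 1 in size. There were 27 higher with 0.1 FPKM added and 10 lower with 5 FPKM added. In the IL6ra T-KO-labelled library 77 were higher and 60 lower, against 32 higher and 35 lower with 5 FPKM added, 116 higher with no FPKM minimum and 49 higher with one of 10 FPKM.

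Of 250 medians of the other lists under an alternative, 231 moved by less than the like reach of their genes' intervals, 19 moved by more and 20 changed sign. No paired analysis was possible because each group has 1 library. With 1 library per group nothing could be left out, and depth limits only the counting error.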
